A study of Taeniopygia guttata with 24 samples.

Results

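Genes for ion channel subunits were followed through the postnatal development of the zebra finch (Taeniopygia guttata) telencephalon, the forebrain region that holds most of the song control system of this songbird. The members were all genes whose symbol, in the study's supplementary tables, starts with 1 of 4 prefixes, KCN (potassium channels), SCN (sodium channels), CACN (calcium channels) or HCN (hyperpolarization-activated cation channels), and that reached 1 cpm (a count scaled to the library's total) in at least 3 samples. This gave 59 gene identifiers with 57 symbols, of 13891 genes that passed the same filter and of 3515 of these that had a symbol, and each of the 59 channel identifiers passed it. The nearest to the filter was SCN4B, with at least 1 cpm in 14 of 24 samples. KCNJ3 and KCNAB2 had 2 identifiers each, of which 1 may be a part or a copy of the other, so that these 4 values are uncertain. The prefixes also took in genes that are not voltage-gated pores, namely inward rectifiers, 2-pore-domain channels, calcium- or sodium-activated channels, auxiliary subunits and the CACNG genes, whose proteins in mammals accompany AMPA-type glutamate receptors, so that the group is called ion channel genes below.

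A voltage-gated channel opens a pore for sodium, potassium or calcium when the membrane potential changes. Sodium channels drive the rising phase of the action potential, potassium channels end it and set the interval to the next, calcium channels turn it into transmitter release and gene regulation, and HCN channels shape rhythm and resting potential. In the vertebrate forebrain neurons acquire much of this equipment as they mature, and related genes of a family can serve different stages.

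The telencephalon was taken from male and female aviary-bred birds at 1 day after hatching (1 dph, day post-hatch), at 20 and 65 dph, and in adulthood (over 170 dph in the sample labels). Each sample was a pool of RNA from 3 birds, and each of the 8 sex and age groups had 3 such samples. The labels name no treatment, and the study's methods put the lower limit for adults earlier than the labels do. Polyadenylated RNA was sequenced and reads were counted per gene, with 16680575 to 28772178 counts per sample, so that 3 counts correspond to 0.104 to 0.180 cpm. Levels below are cpm after TMM scaling, which makes the bulk of genes equal between samples, and mean levels are given ± SD over the 6 samples of an age. Fold changes are log2 values ± standard error from edgeR's quasi-likelihood fit to all 24 samples. The standard error is approximate, derived as the absolute log2 fold change over the square root of the F statistic. Levels and fold changes compare 1 gene between ages or sexes, because gene lengths for the annotation used were not at hand to compare genes with each other.

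How the symbols were obtained limits what the change after 1 dph can show. Genes had a symbol here mainly because they changed with age: 45 of the 59 members stood in a listed age pattern, 42 of them in the pattern of higher expression at all 3 later ages. The rest were listed for methylation or, as for KCNN2, in a list of Z-linked genes, or had a symbol in the study's full expression results. As read here, those results gave a symbol to strongly changed members and not to every tested gene. The direction and size of the change after 1 dph are therefore given as a description. The patterns set each later age against 1 dph, so that steps between the later ages, which share those samples, are not independent of the listing either. This touches most SCN3B, listed as back at its 1 dph level in adults, and KCNH1 and SCN4B, listed as raised from 65 dph only, whose later steps are given with no test. Z-linked members were in the study's analysis of male to female ratios.

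All 59 channel genes differed between 1 dph and the mean of the later ages, 53 of them higher and 6 lower, where the same staged test called 35.1% of all genes higher and 37.2% lower and called 56.9% and 37.5% of the 3456 other genes with a symbol. The median log2 fold change of the members was 1.49, against -0.02 over all genes and 0.49 over the other named genes. Every one of the 18 later samples lay above all 6 samples of 1 dph for 51 members and below them for 5 (21.6% and 21.7% of all genes), and the samples overlapped for HCN4, KCNN2 and SCN4B. Channel transcripts made up 0.260 ± 0.0114% of all counts at 1 dph, and this share was 0.570 ± 0.0334% at 20 dph, 0.637 ± 0.0194% at 65 dph and 0.644 ± 0.0293% in the adult samples (SD, n = 6 samples per age). Most of the rise fell before 20 dph: 52 members were higher and 6 lower at 20 than at 1 dph (35.9% and 38.5% of all genes, 56.2% and 36.3% of the other named genes), and the median over the 53 members that were higher after 1 dph was that 76.2% of the highest rise in mean cpm had been reached by 20 dph. These values are relative to the bulk of genes. Without TMM the median change from 1 dph to the later ages was -0.27 over all genes and 1.24 over the members, with 53 members above 0 in both scalings.

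After 20 dph the channel genes kept moving in both directions. Between 20 and 65 dph 25 members rose and 5 fell, where 14.6% of all genes rose and 15.4% fell (20.8% and 22.2% of the other named genes), and between 65 dph and adulthood 6 rose and 11 fell, where 10.5% rose and 10.7% fell, or 10.5% and 15.2% of the other named genes (edgeR, Benjamini-Hochberg adjustment over all 13891 genes, both steps). Read against genes of the same kind, 25 of the 53 members that were higher after 1 dph rose again from 20 to 65 dph (47.2%), compared with 681 of 1968 other named genes that were higher after 1 dph (34.6%), and 7 of the 53 fell from 65 dph to adulthood (13.2%), compared with 15.6% of those others. These shares are a description, without a test of the list. All counts of this paragraph include KCNH1 among the rises to 65 dph and SCN3B among the falls to adulthood. SCN4B is included among the members without overlap between 20 and 65 dph. The later steps of these genes are not independent of their listing. The median change was 0.15 at the first of these steps and -0.01 at the second, against 0.00 and 0.01 over all genes. All 6 samples at 65 dph lay above all 6 at 20 dph for 15 members and below for 4, which was the case for 7.74% and 7.41% of all genes. Over both steps, 4 members rose at both and 3 fell at both (3.67% and 3.87% of all genes), 3 rose and then fell (1.12%) and 0 fell and then rose (0.612%). At the first step only, 18 rose and 2 fell (9.78% and 10.9%), at the second only, 2 rose and 5 fell (6.25% and 5.69%), and 22 passed at neither (58.1%). The highest mean was that of adults for 27 members (45.8%, against 25.7% of all genes and 25.0% of the other named genes), of 65 dph for 22 (37.3%, against 15.0% and 21.4%), of 20 dph for 4 (6.78%, against 16.0% and 15.4%) and of 1 dph for 6 (10.2%, against 43.3% and 38.2%).

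**Figure D1:**
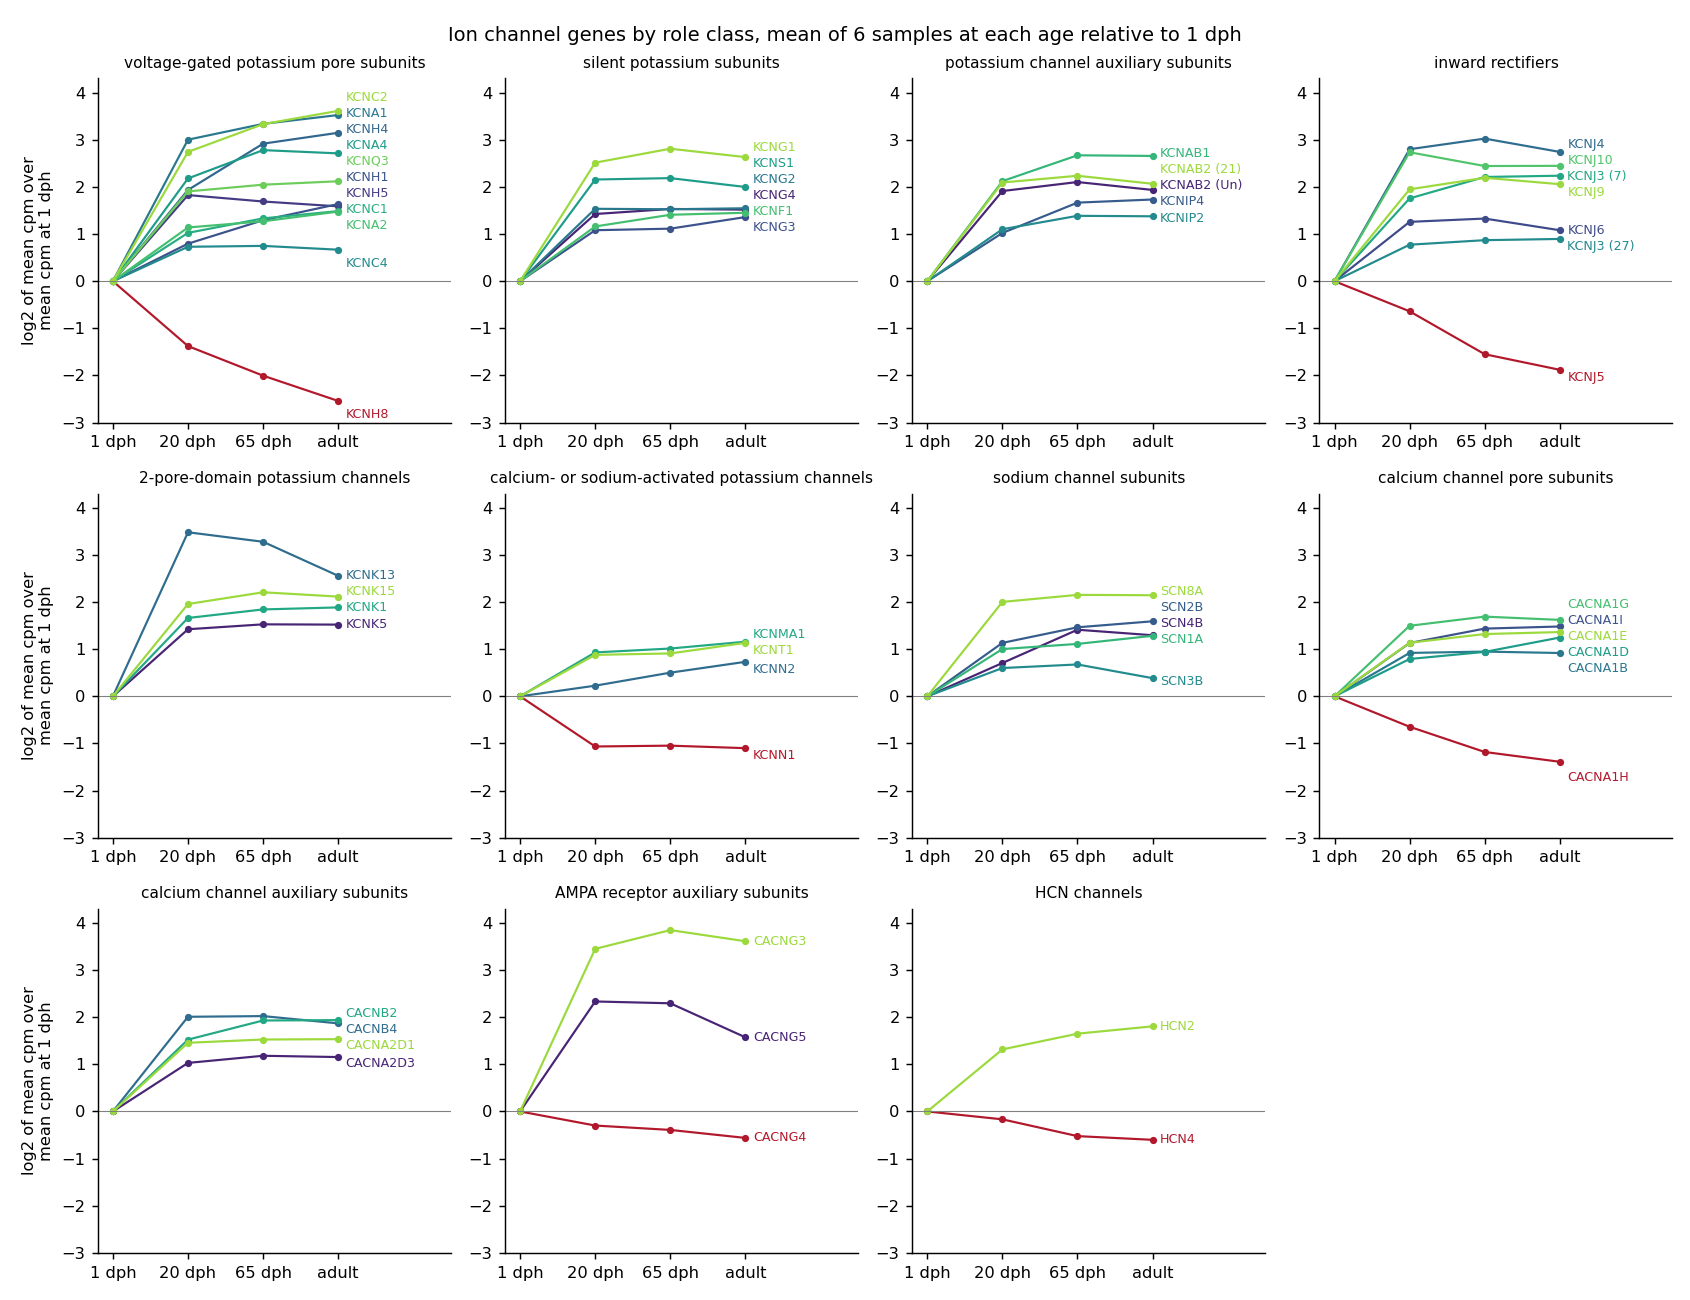
Mean level of 57 channel identifiers at 4 ages, as log2 of the mean cpm of 6 samples over that at 1 dph, in 11 panels by role. Lines that end below 0, in red, are the 6 members that were lower after 1 dph, and duplicate symbols carry their chromosome. Most of the other lines rise mainly between 1 and 20 dph, but those of KCNN2 and KCNH1 do not.

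The 6 genes that were lower after 1 dph all had a close relative that was higher. Since 53 of the 59 members were higher, most of them listed for that pattern, a higher relative was likely for any member. The pairs are therefore a description only. CACNA1H is a T-type calcium channel, KCNJ5 a G-protein-gated inward rectifier, HCN4 a pacemaker channel, KCNH8 a channel of the Elk group, KCNN1 a small-conductance calcium-activated channel and CACNG4 an AMPA receptor partner. Against 1 dph their log2 fold changes were -1.07, -1.36, -0.43, -1.97, -1.07 and -0.42, in that order. Among their relatives, the T-type genes CACNA1G and CACNA1I stood at 1.60 and 1.35, the G-protein-gated KCNJ6 and KCNJ9 at 1.22 and 2.07, HCN2 at 1.59, the Elk gene KCNH4 at 2.67, KCNN2 at 0.50, and CACNG3 and CACNG5 at 3.64 and 2.07. The later samples of KCNN2 overlapped those of 1 dph, and its call was lost without TMM. The 6 genes that fell were in none of the listed age patterns. CACNG4 and CACNG5, which moved apart, are neighbours on chromosome 18 of the current RefSeq assembly.

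**Figure D2:**
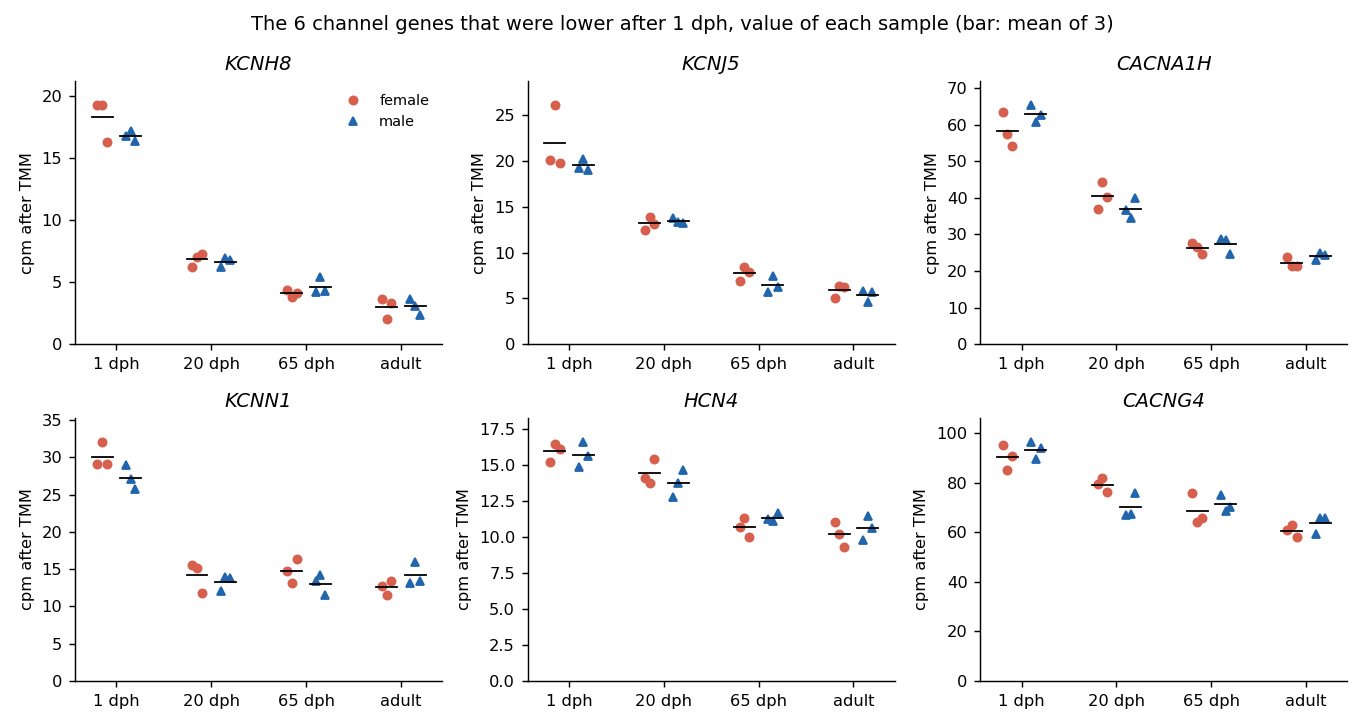
Level of each of the 6 channel genes that were lower after 1 dph, in cpm after TMM, for every sample (circles females, triangles males, 3 per sex and age), with bars at the mean of 3. KCNH8, KCNJ5 and CACNA1H stepped down at every age, KCNN1 stepped down once, by 20 dph, and HCN4 and CACNG4 changed least.

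Of the 12 pore subunits of voltage-gated potassium channels, 11 were higher after 1 dph and KCNH8 lower, with a median log2 fold change of 1.5. KCNA1, whose protein in mammals holds axons back from repeated firing, lay between 2.3 and 3.16 cpm at 1 dph (median 2.55), between 17.9 and 23.2 cpm at 20 dph (median 22.1), between 22.1 and 32.2 cpm at 65 dph (median 25.9) and between 25.4 and 35.4 cpm in adults (median 31.7). Its change against 1 dph of 3.28 ± 0.10 was the largest of the class, and every later sample was above the 1 dph range, with a further rise of 0.33 ± 0.10 (adjusted p = 0.0115, edgeR) from 20 to 65 dph. KCNC2, of the family that lets mammalian interneurons fire fast, lay between 17.5 and 23 cpm at 1 dph (median 19.9), between 123 and 148 cpm at 20 dph (median 136), between 198 and 214 cpm at 65 dph (median 201) and between 221 and 266 cpm in adults (median 252). It rose at each step without overlap between consecutive ages, by 0.59 ± 0.06 (adjusted p = 1.78e-07) from 20 to 65 dph and by 0.28 ± 0.06 (adjusted p = 0.00197) from 65 dph to adulthood (edgeR, Benjamini-Hochberg). KCNC1 of the same family also rose at both steps, by 0.31 ± 0.05 (adjusted p = 5.18e-05) and then by 0.15 ± 0.05 (adjusted p = 0.0278, edgeR), while KCNC4 stood at 0.02 and -0.08 and passed at neither. The adult rise of KCNC1 did not pass without any 1 of female 65 dph samples 1 or 3, male 65 dph samples 1 or 2, female adult sample 1 or male adult samples 2 or 3.

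The largest later rise of any member was that of KCNH4, an Elk channel, which lay between 1.74 and 2.84 cpm at 1 dph (median 1.99), between 6.15 and 10.1 cpm at 20 dph (median 8.23), between 14.7 and 17.3 cpm at 65 dph (median 16.3) and between 17.2 and 20.6 cpm in adults (median 19.2). Its values at 65 dph were clear of those at 20 dph, the step being 0.98 ± 0.11 (adjusted p = 5.63e-07, edgeR), and by 20 dph it had reached 35.9% of its highest rise, so that it came late among the channel genes. KCNH8, of the same group, lay between 16.3 and 19.3 cpm at 1 dph (median 17), between 6.2 and 7.3 cpm at 20 dph (median 6.89), between 3.82 and 5.44 cpm at 65 dph (median 4.24) and between 2.03 and 3.66 cpm in adults (median 3.2). Consecutive ages did not overlap at any step, with changes of -0.63 ± 0.12 (adjusted p = 2.55e-04) from 20 to 65 dph and -0.54 ± 0.13 (adjusted p = 0.00417) from 65 dph to adulthood (edgeR). KCNA4, a subunit of fast-inactivating A-type current, rose by 0.60 ± 0.07 (adjusted p = 6.92e-07) from 20 to 65 dph and stood at -0.07 ± 0.07 thereafter, with means of 13.1 ± 1.14 cpm at 1 dph, 59.2 ± 6.15 cpm at 20 dph, 89.8 ± 7.64 cpm at 65 dph and 85.6 ± 3.5 cpm in adults. KCNH1, an ether-à-go-go channel, averaged 3.92 ± 0.708 cpm at 1 dph, 6.81 ± 0.772 cpm at 20 dph, 9.6 ± 1.5 cpm at 65 dph and 12.2 ± 1.84 cpm in adults. Its later steps were 0.49 ± 0.13 to 65 dph and 0.35 ± 0.13 to adulthood. Its relative KCNH5 had its highest mean at 20 dph instead and passed at neither later step. KCNA2, an axonal partner of KCNA1, rose from 65 dph to adulthood by 0.21 ± 0.07 (adjusted p = 0.0337, edgeR), a call lost on leaving out any 1 of female 65 dph samples 2 or 3, male 65 dph samples 1 or 2, female adult samples 1 or 2 or male adult sample 3. KCNQ3, a subunit of the M-current that damps repeated firing, averaged 44 ± 3.93 cpm at 1 dph, 165 ± 19 cpm at 20 dph, 182 ± 19 cpm at 65 dph and 191 ± 23.7 cpm in adults and passed at no step after 20 dph.

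**Figure D3:**
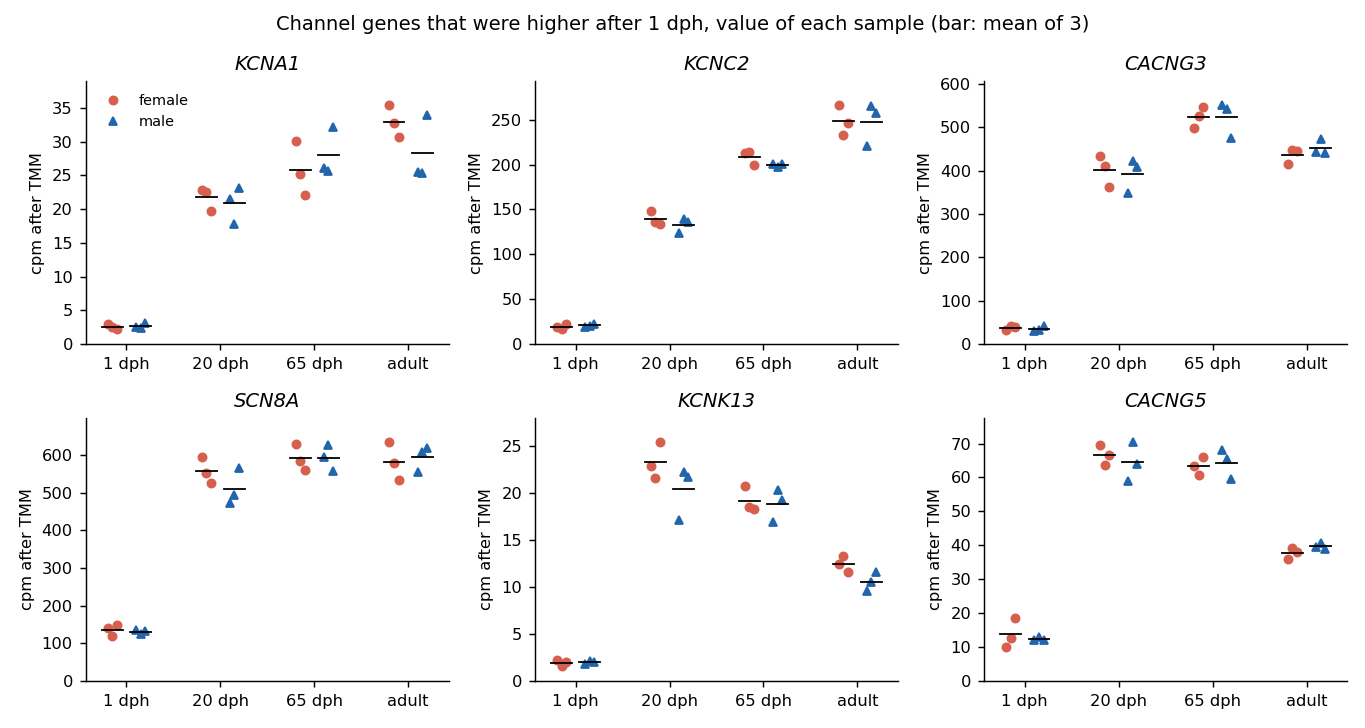
Level of 6 channel genes that were higher after 1 dph, in cpm after TMM, for every sample (circles females, triangles males, 3 per sex and age), with bars at the mean of 3. KCNC2 climbed at each age, SCN8A did most of its rise by 20 dph, and KCNK13, CACNG5 and CACNG3 were lower in adults than at 65 dph.

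The silent subunits, which make no channel alone but alter the channels they join, were all higher after 1 dph, 6 of 6, with a median of 1.51. KCNG1 changed most and lay between 44 and 56.9 cpm at 1 dph (median 51.9), between 274 and 321 cpm at 20 dph (median 287), between 343 and 386 cpm at 65 dph (median 354) and between 303 and 327 cpm in adults (median 319.7). The ranges of consecutive ages did not overlap, as the gene rose by 0.30 ± 0.05 (adjusted p = 8.39e-05) from 20 to 65 dph and then fell by 0.18 ± 0.05 (adjusted p = 0.0132, edgeR, both steps). The call of the fall was lost in 2 of the other settings. KCNG3 changed least, with means of 4.48 ± 0.87 cpm at 1 dph, 9.47 ± 0.953 cpm at 20 dph, 9.69 ± 0.892 cpm at 65 dph and 11.5 ± 1.58 cpm in adults. KCNF1 rose between 20 and 65 dph by 0.25 ± 0.08 (adjusted p = 0.0278), a call not passed on leaving out any 1 of female 20 or 65 dph sample 2 or male 20 dph samples 1 or 3, and KCNG2, KCNG4 and KCNS1 passed at neither later step.

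Auxiliary potassium channel subunits were likewise higher after 1 dph, 5 of 5 identifiers, with a median of 1.98. KCNAB1, a cytoplasmic beta subunit of the KCNA channels, lay between 13.3 and 15.1 cpm at 1 dph (median 14.1), between 54.3 and 70.4 cpm at 20 dph (median 61.2), between 77 and 100.4 cpm at 65 dph (median 91.8) and between 85.6 and 94.2 cpm in adults (median 88.1). The values at 65 dph were all above those at 20 dph, a rise of 0.55 ± 0.06 (adjusted p = 7.79e-07, edgeR), and those of adults fell within the 65 dph range. KCNIP4, which binds A-type channels and sets their gating in mammals, rose in the same way by 0.64 ± 0.08 (adjusted p = 1.38e-06), from means of 13 ± 2.29 cpm at 1 dph, 26.5 ± 2.44 cpm at 20 dph, 41.3 ± 2.49 cpm at 65 dph and 43.3 ± 3.29 cpm in adults. KCNIP2 rose less, by 0.28 ± 0.06 (adjusted p = 0.00195, edgeR). The identifiers of KCNAB2, on chromosome 21 and on unplaced sequence, had changes against 1 dph of 2.13 ± 0.06 and 1.98 ± 0.12 and passed at neither later step, and the RefSeq gene table places this gene on chromosome 21 only.

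Inward rectifiers pass potassium near the resting potential, and 6 of 7 identifiers were higher after 1 dph. KCNJ4, a strong rectifier, lay between 5.05 and 7.54 cpm at 1 dph (median 6.4), between 38.9 and 48.2 cpm at 20 dph (median 46.1), between 47.8 and 57.6 cpm at 65 dph (median 53.6) and between 38.9 and 47 cpm in adults (median 44.6). After its rise to 20 dph it went up by 0.22 ± 0.06 (adjusted p = 0.00695) to 65 dph and down again by 0.28 ± 0.06 to adulthood (adjusted p = 0.00207, edgeR), where no adult sample reached the 65 dph range. KCNJ5 went the other way and lay between 19 and 26.1 cpm at 1 dph (median 19.9), between 12.5 and 13.9 cpm at 20 dph (median 13.3), between 5.67 and 8.47 cpm at 65 dph (median 7.16) and between 4.59 and 6.38 cpm in adults (median 5.73). Its change of -0.92 ± 0.09 (adjusted p = 1.17e-07) from 20 to 65 dph had no overlap, and that of -0.33 ± 0.10 (adjusted p = 0.0204) to adulthood (edgeR) was lost without any 1 of female or male 65 dph sample 2, female adult sample 1 or male adult sample 2. KCNJ6 changed after 65 dph by -0.25 ± 0.07 (adjusted p = 0.0113, edgeR), a call lost in 2 of the other settings. KCNJ9 rose from 20 to 65 dph by 0.25 ± 0.08 (adjusted p = 0.0236, edgeR). This call was lost without any 1 of female 20 or 65 dph sample 3, male 20 dph samples 1 or 3 or male 65 dph sample 1. Of the identifiers of KCNJ3, which in mammals pairs with these G-protein-gated subunits, the one on chromosome 7 rose between 20 and 65 dph by 0.45 ± 0.06 (adjusted p = 1.24e-05, edgeR), whereas the one on 27 stood at 0.10 ± 0.06 (adjusted p = 0.271). The RefSeq gene table names KCNJ3 on chromosome 7 only.

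KCNJ10, the inward rectifier of mammalian glia, had its highest mean at 20 dph and lay between 23.1 and 31.5 cpm at 1 dph (median 28.9), between 175 and 219 cpm at 20 dph (median 187), between 136 and 180.3 cpm at 65 dph (median 152) and between 121 and 176 cpm in adults (median 162). It was higher than at 1 dph at every later age and fell by 0.29 ± 0.09 (adjusted p = 0.0139, edgeR) from 20 to 65 dph, with overlapping samples. The call of this fall was lost in 2 of the other settings. The 3 astrocyte markers found by symbol (of 7, SLC1A2, SLC1A3 and S100B) summed to 146 to 202 cpm at 1 dph, 532 to 698 cpm at 20 dph, 407 to 532 cpm at 65 dph and 458 to 561 cpm in adults. The oligodendrocyte markers MBP and CNP summed to 53.8 to 87.3 cpm at 1 dph, 668 to 890.3 cpm at 20 dph, 571 to 651 cpm at 65 dph and 552 to 804 cpm in adults. Against 1 dph they were higher, MBP by 4.83 and CNP by 1.52 (log2). From 20 to 65 dph, the step at which KCNJ10 fell, CNP fell by 0.29 (adjusted p = 0.0123) and MBP stood at -0.35 (adjusted p = 0.0903, edgeR). Of the astrocyte markers, SLC1A2 stood at -0.43 (adjusted p = 0.00964) and SLC1A3 at -0.21 (adjusted p = 0.00667) at this step. S100B stood at -0.37 (adjusted p = 0.22, edgeR, all 3 markers). The part of these markers in the change of KCNJ10 was not tested. In this bulk tissue, a change in the number of cells of a type and a change in the RNA per cell cannot be told apart, for this gene or for any other.

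The 2-pore-domain channels, which carry a steady leak of potassium, were higher after 1 dph, 4 of 4, with a median of 1.95. KCNK13, a halothane-inhibited channel that in mammals is known from microglia, lay between 1.6 and 2.24 cpm at 1 dph (median 2.03), between 17.2 and 25.5 cpm at 20 dph (median 22), between 16.9 and 20.8 cpm at 65 dph (median 18.9) and between 9.62 and 13.3 cpm in adults (median 11.6). It had its highest mean at 20 dph, but the step to 65 dph, -0.20 ± 0.08 (adjusted p = 0.0706, edgeR), did not pass and the samples overlapped. The adult samples were all below those of 65 dph, a change of -0.73 ± 0.09 (adjusted p = 4.23e-06, edgeR) that was the largest adult fall among the members. None of the 6 microglial markers had a symbol here, so that their levels were not analysed. KCNK15 rose from 20 to 65 dph by 0.25 ± 0.08 (adjusted p = 0.0177, edgeR), a call lost without any 1 of female 20 or 65 dph sample 2 or male 20 dph sample 1. KCNK1 and KCNK5 passed at neither later step, and KCNK5 changed least against 1 dph, by 1.49 ± 0.09.

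Of the 4 genes for channels opened by calcium or sodium inside the cell, 3 were higher after 1 dph and KCNN1 was lower, with a median of 0.74. KCNN1, which carries part of the afterhyperpolarization in mammals, lay between 25.8 and 32.1 cpm at 1 dph (median 29), between 11.8 and 15.5 cpm at 20 dph (median 13.9), between 11.5 and 16.4 cpm at 65 dph (median 13.8) and between 11.5 and 16 cpm in adults (median 13.3). It fell once, with no overlap between 1 dph and any later age, and its later steps were 0.02 and -0.06. KCNMA1, the large-conductance calcium-activated channel, had the largest rise of the class, with means of 52.8 ± 7.61 cpm at 1 dph, 101 ± 13.5 cpm at 20 dph, 107 ± 13.3 cpm at 65 dph and 118 ± 14.1 cpm in adults. KCNT1, the sodium-activated channel, rose by 0.88 ± 0.06 from 1 to 20 dph, by which age it had reached 70.2% of its highest rise. It stood at 0.03 ± 0.06 from 20 to 65 dph and rose again to adulthood, by 0.22 ± 0.06 (adjusted p = 0.00867, edgeR). KCNN2 differed between the sexes and is described with them.

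The sodium channel genes were higher after 1 dph, 5 of 5, with a median of 1.15. SCN8A, the pore subunit concentrated at the axon initial segment and nodes in mammals, lay between 119 and 149 cpm at 1 dph (median 133), between 471 and 593 cpm at 20 dph (median 538), between 558 and 628 cpm at 65 dph (median 588) and between 532 and 635 cpm in adults (median 594). It changed most of the class, by 2.10 ± 0.06 against 1 dph, and passed at no step after 20 dph, with changes of 0.15 ± 0.06 (adjusted p = 0.0627) and -0.01 ± 0.06 (adjusted p = 0.945, edgeR). The beta subunits, which steer and modulate the pore, took different courses. SCN3B changed least against 1 dph, by 0.55 ± 0.03, and lay between 204 and 222 cpm at 1 dph (median 209), between 303 and 344 cpm at 20 dph (median 316), between 317 and 349 cpm at 65 dph (median 340.4) and between 259 and 291 cpm in adults (median 278). Its adult samples were all below those of 65 dph, a change of -0.29 ± 0.04, given with no test because of that listing. SCN2B rose from 20 to 65 dph by 0.33 ± 0.05 (adjusted p = 4.96e-05, edgeR) without overlap, with means of 56 ± 4.25 cpm at 1 dph, 123 ± 8.19 cpm at 20 dph, 154 ± 8.31 cpm at 65 dph and 169 ± 9.48 cpm in adults. SCN4B was close to the limit of detection with 7 to 37 counts per sample, and its step from 20 to 65 dph was 0.70 ± 0.27, without overlap between the samples. The gene listed as SCN1A, on chromosome 7, averaged 116 ± 17.1 cpm at 1 dph, 232 ± 14.7 cpm at 20 dph, 249.9 ± 32.1 cpm at 65 dph and 282 ± 19.4 cpm in adults and passed at no later step; of the 57 symbols it is the only one absent from the RefSeq gene table.

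Calcium channel pore subunits were higher after 1 dph for 5 of 6, with a median of 1.13. CACNA1G, a T-type channel that opens near rest and supports burst firing, had the largest rise, with means of 76.6 ± 5.95 cpm at 1 dph, 216 ± 20.5 cpm at 20 dph, 247 ± 24.7 cpm at 65 dph and 236 ± 12.3 cpm in adults. Its step from 20 to 65 dph, 0.20 ± 0.07 (adjusted p = 0.0285, edgeR), was lost without TMM or without any 1 of female 20 dph sample 3, male 20 dph sample 1, female 65 dph sample 1 or male 65 dph samples 1 or 2. CACNA1H, of the same type, lay between 54.2 and 65.4 cpm at 1 dph (median 61.7), between 34.4 and 44.3 cpm at 20 dph (median 38.4), between 24.6 and 28.7 cpm at 65 dph (median 27.1) and between 21.2 and 25 cpm in adults (median 23.5). It went down at each age, with changes of -0.53 ± 0.06 (adjusted p = 7.47e-07) from 20 to 65 dph without overlap and of -0.21 ± 0.06 (adjusted p = 0.0202) to adulthood (edgeR), the latter not passed without male 65 dph sample 1 or 2 or without TMM. CACNA1I, the third gene of the type, rose by 0.31 ± 0.07 (adjusted p = 0.00137) from 20 to 65 dph (edgeR). CACNA1D, an L-type channel that couples activity to gene expression, lay between 84.1 and 105 cpm at 1 dph (median 99.2), between 152 and 184 cpm at 20 dph (median 171), between 169 and 207 cpm at 65 dph (median 186) and between 220.5 and 243 cpm in adults (median 234). Adult samples were all above those of 65 dph, a rise of 0.31 ± 0.05 (adjusted p = 2.60e-04, edgeR) that was the largest adult rise among the called members. Its earlier rise from 20 to 65 dph, 0.15 ± 0.05 (adjusted p = 0.0296, edgeR), was lost without TMM or without any 1 of female 20 dph sample 3, male 20 dph samples 1 or 2, female 65 dph sample 1 or male 65 dph sample 3. CACNA1E, of the R-type, rose from 20 to 65 dph by 0.19 ± 0.05 (adjusted p = 0.00445, edgeR), and CACNA1B, the N-type channel of transmitter release, stood at 0.03 ± 0.07 (adjusted p = 0.799) and -0.03 ± 0.07 (adjusted p = 0.808) at the later steps.

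Of the 4 auxiliary calcium channel subunits, all higher after 1 dph, CACNB4 changed most and CACNA2D3 least, with log2 fold changes of 1.96 ± 0.08 and 1.12 ± 0.06. CACNB2, a beta subunit that carries the pore to the membrane, alone passed at a later step, with a rise of 0.41 ± 0.06 (adjusted p = 4.24e-05) from 20 to 65 dph (edgeR), and averaged 26.4 ± 3.13 cpm at 1 dph, 76 ± 5.45 cpm at 20 dph, 101 ± 6.6 cpm at 65 dph and 101 ± 5.63 cpm in adults. The CACNG genes encode AMPA receptor partners in mammals. CACNG3 had the largest change of any member against 1 dph, 3.64 ± 0.07, and lay between 30.4 and 41.4 cpm at 1 dph (median 36.5), between 349 and 434 cpm at 20 dph (median 409), between 476 and 551 cpm at 65 dph (median 534) and between 415 and 473 cpm in adults (median 445). It rose to 65 dph by 0.40 ± 0.07 (adjusted p = 1.56e-04) and fell to adulthood by 0.24 ± 0.07 (adjusted p = 0.019, edgeR), and neither step had overlapping samples. The call of the fall was lost in 2 of the other settings. CACNG5 lay between 9.95 and 18.5 cpm at 1 dph (median 12.3), between 59.1 and 70.6 cpm at 20 dph (median 65.3), between 59.6 and 68 cpm at 65 dph (median 64.4) and between 35.9 and 40.8 cpm in adults (median 39). It stood at -0.04 ± 0.09 (adjusted p = 0.783) from 20 to 65 dph and fell by 0.72 ± 0.09 (adjusted p = 7.55e-06) to adulthood (edgeR), with all adult samples below all samples of 65 and 20 dph. CACNG4 lay between 85 and 96.6 cpm at 1 dph (median 92.3), between 67.1 and 81.8 cpm at 20 dph (median 76.1), between 64.1 and 75.9 cpm at 65 dph (median 69.5) and between 58 and 65.9 cpm in adults (median 62.1). Its adult change of -0.17 ± 0.05 (adjusted p = 0.0219, edgeR) was lost without TMM or without any 1 of female or male 65 dph sample 1, female adult sample 3 or male adult sample 1, and with it all 3 CACNG genes fell at that step.

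HCN channels open when the membrane hyperpolarizes. HCN2, found widely in the mammalian brain, rose by 0.33 ± 0.06 (adjusted p = 2.11e-04) from 20 to 65 dph (edgeR) and stood at 0.16 ± 0.06 (adjusted p = 0.0677) at the adult step, with means of 29.5 ± 2.77 cpm at 1 dph, 73.5 ± 4.88 cpm at 20 dph, 92.6 ± 4.9 cpm at 65 dph and 103 ± 5.99 cpm in adults. HCN4, the slow pacemaker channel of the heart, lay between 14.8 and 16.6 cpm at 1 dph (median 15.9), between 12.8 and 15.4 cpm at 20 dph (median 13.9), between 9.97 and 11.6 cpm at 65 dph (median 11.2) and between 9.33 and 11.5 cpm in adults (median 10.4). Samples of 20 dph overlapped those of 1 dph, and most of the change came from 20 to 65 dph, where the gene fell by 0.36 ± 0.07 (adjusted p = 2.79e-04, edgeR), with no overlap.

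**Figure D4:**
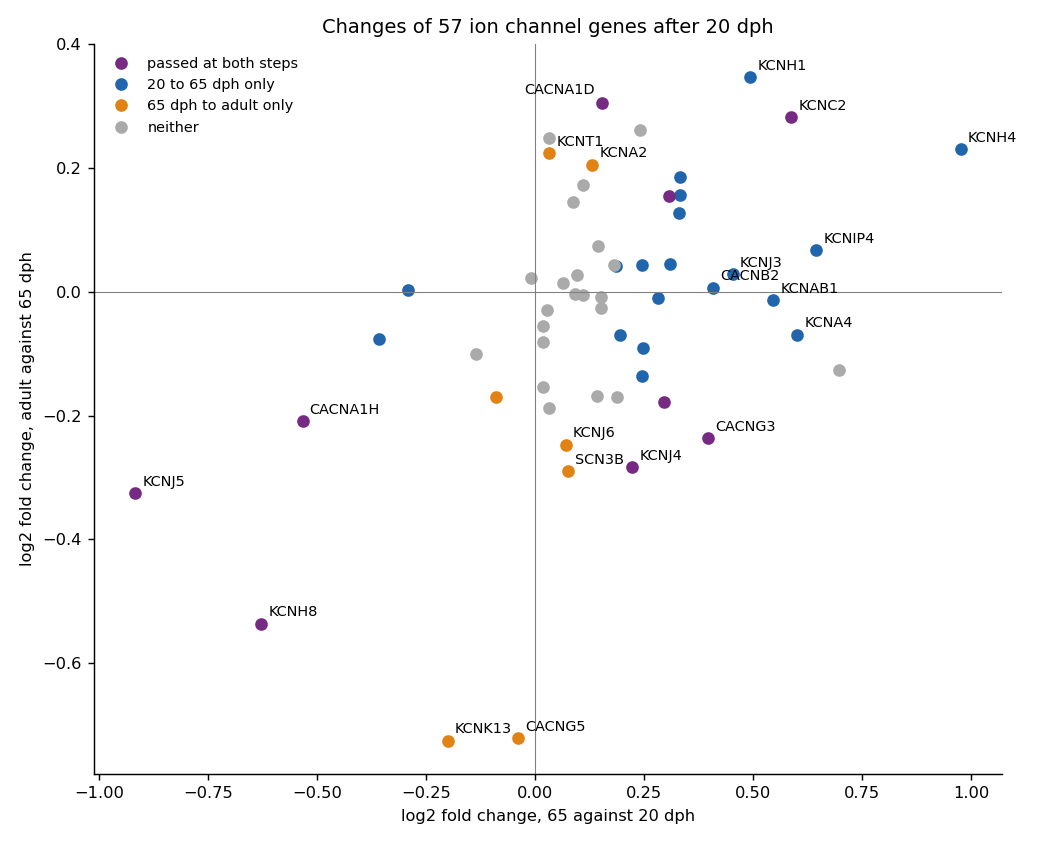
Log2 fold change of 57 channel identifiers from 20 to 65 dph (horizontal) and from 65 dph to adulthood (vertical), 6 samples per age, coloured by the steps at which they passed an adjusted p of 0.05. KCNH4 lies farthest to the right at 0.98, KCNJ5 farthest to the left at -0.92, and KCNK13 and CACNG5 lowest at -0.73 and -0.72. KCNH1 and SCN3B are coloured by the same rule, though their later steps are given with no test in the text.

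Males and females were compared at each age. Among the 59 channel genes, 3 differed at 1 dph by the staged test (5.59% of all genes), 0 differed at 20 dph (4.45%), 2 differed at 65 dph (4.87%) and 0 were called in adults (2.15%). Among the other named genes, which include the study's listed Z-linked genes, the shares were 15.7%, 13.1%, 14.1% and 5.96%. All of the calls among the channel genes were of higher levels in males. The staged test admits a gene through its age effect and so does not adjust the sex contrast over genes. With Benjamini-Hochberg adjustment per contrast (edgeR), KCNN2 alone passed, at 1 dph and at 65 dph, against 3.71%, 2.71%, 3.26% and 0.0432% of all genes at the 4 ages, and DESeq2 likewise called KCNN2 alone, at the same ages, against 4.29%, 3%, 3.58% and 0.115% of all genes. At an unadjusted p of 0.05 there were 5, 4, 2 and 0 members, against 10.3%, 9.3%, 8.88% and 4.66% of all genes.

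KCNN2, a small-conductance calcium-activated potassium channel gene, is on the Z chromosome, of which male birds carry a pair and females a single copy. It was in the study's analysis of male to female ratios on this chromosome, so that its sex values are not independent of how it came to be named. KCNN2 at 1 dph stood at 6.36, 5.26 and 7.75 cpm in females and at 10.6, 8.85 and 9.58 cpm in males, and at 65 dph at 10.1, 8.03 and 8.27 cpm and at 14.3, 13.4 and 14.4 cpm. Males were above females without overlap at both ages, by 0.58 ± 0.16 (adjusted p = 0.00491) and 0.67 ± 0.16 (adjusted p = 0.00175, edgeR, staged). With Benjamini-Hochberg adjustment per contrast in edgeR the adjusted p was 0.0446 and 0.0161. At 20 dph females stood at 8.87, 8.79 and 8.15 cpm and males at 8.3, 10.2 and 12.2 cpm, and in adults at 13.2, 13.1 and 10.2 cpm and at 11.4, 16.6 and 15.9 cpm. The samples overlapped at these ages, with differences of 0.26 ± 0.16 (adjusted p = 0.218) and 0.27 ± 0.16 (adjusted p = 0.218), and the adult difference passed when male adult sample 1 was left out. Over both sexes KCNN2 was higher after 1 dph by 0.50 ± 0.10, a call lost without TMM, and it was the only member not to pass between 1 and 20 dph.

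The other calls at 1 dph were of autosomal genes. KCNG3, a silent subunit, stood at 4.34, 3.63 and 3.5 cpm in females and at 5.12, 4.52 and 5.77 cpm in males, and KCNJ4, the strong inward rectifier, at 5.05, 6.08 and 6.1 cpm and at 6.69, 7.54 and 7.4 cpm. Male samples were above female samples without overlap for both, by 0.43 ± 0.15 (adjusted p = 0.0374) and 0.33 ± 0.10 (adjusted p = 0.0178, edgeR, staged). Neither passed with Benjamini-Hochberg adjustment per contrast, where edgeR's adjusted p was 0.18 and 0.102. The call of KCNG3 was lost without any 1 of female 1 dph samples 2 or 3 or male samples 1 or 3, that of KCNJ4 without any 1 of female 1 dph sample 1 or male samples 2 or 3. KCNIP4 stood lower in males at 1 dph, at -0.31 ± 0.12, with overlapping samples, and did not pass (adjusted p = 0.0553, edgeR, staged). It passed in some other settings, among them no filter on low counts and leaving out male 1 dph sample 2. CACNG5, also lower in males, passed without female 1 dph sample 1.

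At 20 dph the sexes did not overlap for 10 members, all with higher values in females (16.8% of all genes did not overlap at that age, 9.55% with females higher), and none passed the test. The median male to female difference over the members was -0.07, against -0.03 over all genes. CACNA1D passed at 20 dph when female 1 dph sample 2 was left out and CACNG4 when male 20 dph sample 3 was. A direct test for a sex difference that varies with age (edgeR, 3 degrees of freedom) called 0 members, where 1.05% of all genes passed. The smallest adjusted p among the members was 0.746, 0 members had an unadjusted p under 0.05 (7.17% of all genes), and DESeq2 called 0 (2.07% of all genes). The sex difference of KCNN2 was thus not shown to differ between the ages at which it passed and those at which it did not.

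**Figure D5:**
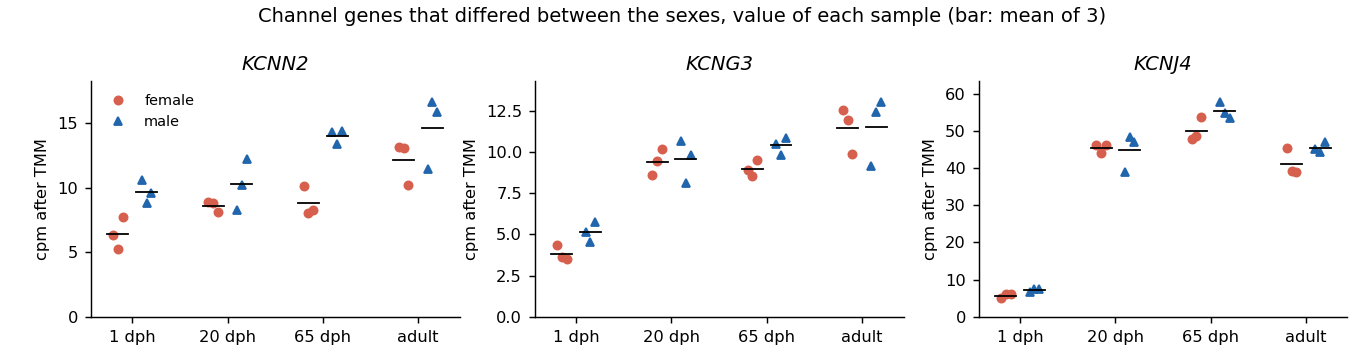
Level in cpm after TMM of 3 channel genes that differed between the sexes, for every sample (circles females, triangles males, 3 per sex and age), with bars at the mean of 3. Males lie above females at 1 dph in all 3 panels and at 65 dph for KCNN2 and KCNG3, and the sexes overlap at 20 dph and in adults.

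Of a list of 28 related genes, for proteins that anchor, assemble or repress these channels, for ion pumps, and for ion channels outside the 4 prefixes with a subunit (NALCN, TPCN1 and UNC80), 13 were found by symbol, with no repressor among them. All 13 were higher after 1 dph with a median of 1.32, again among genes named mainly for changing with age. Between 20 and 65 dph 4 of them rose and 0 fell, and between 65 dph and adulthood 1 rose and 1 fell. Cell type markers moved over the same ages. The 4 neuronal markers found by symbol (of 9, SNAP25, SYT1, NEFL and NEFM) summed to 918 to 1423 cpm at 1 dph, 3882 to 4167 cpm at 20 dph, 5612 to 6025 cpm at 65 dph and 6185 to 6782 cpm in adults, and all 4 were higher after 1 dph. Those of astrocytes and oligodendrocytes are given with KCNJ10. The 6 markers of cycling progenitors were all lower, from a sum of 398 to 553 cpm at 1 dph to 100.3 to 110.2 cpm at 20 dph, as were 3 endothelial markers of 5, while the 5 identifiers of 4 inhibitory neuron markers were higher and of 4 excitatory markers 1 was higher and 3 lower. Both blood markers found of 5 were higher, from 75.0 to 258 cpm at 1 dph to 512 to 647 cpm at 20 dph. Of 5 telencephalic markers, SIX3 and EMX2 had a symbol here, and both were present in every group at a sum of at least 20.8 cpm. Both were lower after 1 dph, with log2 fold changes of -1.07 and -0.72. Their sum went from 42.9 to 48.2 cpm at 1 dph to 20.8 to 23.6 cpm at 20 dph. None of the 7 markers of other brain regions had a symbol here, nor did the choroid plexus marker. The part of any of these in the channel values was not tested.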

How the data were processed

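RNA-Seq was performed on 24 pooled telencephalon samples. The deposited file holds raw counts of reads per Ensembl gene (assembly taeGut3.2.4 per the methods), made by the authors with STAR 2.5.2b, SAMtools 0.1.18 and HTSeq 0.6.0 after FastQC 0.10.1 per the submitters' processing notes; libraries were stranded, and the strand setting of the counting is not given in the sources used here, so overlapping antisense genes may share reads. Sequencing runs of a sample were already combined.

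Counts of 18618 genes were filtered (1 cpm in at least 3 samples), scaled by TMM and fitted with edgeR 4.0.16 (R 4.3.3) as 8 group means over all 24 samples. The mean TMM factor was 1.14 at 1 dph and 0.961, 0.945 and 0.967 later. Age (later ages against 1 dph) and sex at each age followed the study's staged scheme: an omnibus F test over 5 contrasts at a Benjamini-Hochberg rate of 0.05, then Holm adjustment within the gene. Steps between ages and sex by age were adjusted over all 13891 genes. Alternatives were DESeq2 1.42.0, DESeq2 size factors, no TMM, no filter, adjustment per contrast, each sex alone, no uncertain identifiers, and leaving out each sample. The contrasts of each sex alone were taken from the same fit to all 24 samples. Their scaling and spread thus came from both sexes. The fit was tested on simulated data. Symbols came from the study's supplementary tables; 56 of 57 are in the RefSeq gene table (bTaeGut7.mat), used for names and neighbours only. Genes were named by rule: per role class the largest and smallest age change, the largest changes and calls at later steps, and sex calls; other members were named by role after their values were seen. Members and lists were chosen with earlier results of these data known. Samples of a group are separate pools, none within counting noise of another (chi-square per gene 6.96 to 26.4), and p-values measure the spread between pools. The floor of 3 counts covers counting error only. Some items that the rule would name are not reported here, though counts over the members include them.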

Additional observations from a re-analysis of the deposited data

How the results depend on the processing

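The counts of channel genes that changed with age (59) and from 1 to 20 dph (58) stayed within 1.5 times under every alternative run, and no direction reversed. From 20 to 65 dph, 30 passed in both sexes together, 16 in females alone (12 higher, 4 lower) and 24 in males alone; from 65 dph to adulthood, 17 passed together, 7 in females (3 higher, 4 lower) and 7 in males (2 higher, 5 lower), with fewer samples per contrast. The counts of each sex alone came from contrasts within the fit to all 24 samples, not from separate fits. Without TMM the split from 65 dph to adulthood was 9 higher and 9 lower. The 3 sex calls at 1 dph became 1 with adjustment per contrast and 1 with DESeq2, and the 2 at 65 dph became 1 and 1. Leaving out each sample in turn gave 59 to 59 members for age, 56 to 59 from 1 to 20 dph, 24 to 32 from 20 to 65 dph, 12 to 20 from 65 dph to adulthood, and for sex 1 to 4 at 1 dph (1 without male 1 dph sample 3), 0 to 1 at 20 dph, 1 to 3 at 65 dph, 0 to 1 in adults and 0 to 0 by age. Each call of a single gene was counted once per setting. Of these, 57 were lost under the other alternatives, where 1011 were not, and 86 on leaving out a sample, where 3970 were not. The same call can thus be lost in several settings, as that of KCNA2 from 65 dph to adulthood was in 9. These numbers are therefore not shares of genes. Some of these settings had fewer samples, while others, such as no TMM, used all 24. The calls of CACNA1E, CACNA1I, KCNA1, KCNIP2 and KCNJ4 from 20 to 65 dph were each lost in 1 setting. So were those of KCNC2, KCNH8 and KCNT1 from 65 dph to adulthood. The cause of the losses was not tested. Adding channel genes from the RefSeq table was not run, since it carries no Ensembl identifiers. No paired analysis was possible because the labels number the pools 1 to 24, so that groups share no replicate numbers; per the study's methods, nestmates were spread over the ages, and which pools share nests is not given in the sources used here. Depth limits SCN4B and KCNG4 most.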
